A study of Mus musculus with 7 samples.

Results

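Malat1, Neat1, Kcnq1ot1 and 4 host genes of small nucleolar RNAs (snoRNAs), Gas5, Snhg1, Snhg8 and Snhg12, were followed in sorted mouse bone marrow stromal cells. These 7 long non-coding RNAs were picked by symbol, through the Ensembl gene ID with its version suffix ignored, from 53801 gene IDs in the count tables. All 7 were found and all 7 passed the filter on low counts, which kept 12930 genes. The choice was made with the abundance of Malat1 in these libraries known, so levels and abundance ranks are given as descriptions without a test. In the FAPi group, 4 male C57BL/6 mice received FAPi, an inhibitor of fibroblast activation protein, at 500 µg/kg, and in the control group 3 male C57BL/6 mice received DPBS, a buffered saline. Both groups were 8 weeks old at the start and got 100 µl per day into the peritoneal cavity for 35 days, and no genetic change is labelled in either group. The cells came from limb bones and were sorted as Pdgfra+ and negative for Tie2, Ter119 and CD45, with DAPI- and Calcein-AM+ marking live cells, at 7000 cells per library, and total RNA was made into libraries by a modified Smart-seq2 protocol. The inhibitor is not named in the labels, and since the groups are described as mice with numbered replicates, each library is taken here as 1 mouse.

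Malat1 is a nuclear RNA of the nuclear speckles, bodies rich in splicing factors, and is among the most abundant RNAs of most mouse tissues. Neat1, its neighbour on the chromosome, is made as a short polyadenylated form and as a long form that is the scaffold of paraspeckles, nuclear bodies that hold RNA-binding proteins. Gas5, Snhg1, Snhg8 and Snhg12 are spliced genes whose introns are processed into snoRNAs, which guide chemical modification of ribosomal and spliceosomal RNA. Box C/D snoRNAs guide methylation and box H/ACA snoRNAs guide the formation of pseudouridine. Many host RNAs start with a run of pyrimidines like that of ribosomal protein mRNAs (the terminal oligopyrimidine, or TOP, motif) and are degraded in the cytoplasm by nonsense-mediated decay. Kcnq1ot1 is an unspliced antisense RNA of the paternal chromosome that silences neighbouring imprinted genes in cis.

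The promoters of the 4 host genes, Malat1 and Kcnq1ot1 were searched for short motifs. Neat1 had no listed promoter. Each line below runs from 40 bases before to 35 bases after a RefSeq transcript start (build GRCm38.p6, coordinates of the same assembly as mm10). Capitals mark the letters TATA, where these lie 40 to 20 bases before the start, and a TOP-like run, defined as a C followed by at least 4 pyrimidines that begins within 3 bases of the start. Both motifs were searched on the transcribed strand only, and their windows do not overlap. The lines are Gas5 (second listed promoter, chr1:161035126-161035200, plus strand), Snhg8 (chr3:123508302-123508376, minus strand), Snhg12 (chr4:132308638-132308712, plus strand), Snhg1 (chr19:8723447-8723521, plus strand) and Malat1 (chr19:5802638-5802712, minus strand).
Gas5: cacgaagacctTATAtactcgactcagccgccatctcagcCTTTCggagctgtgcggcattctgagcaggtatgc
Snhg8: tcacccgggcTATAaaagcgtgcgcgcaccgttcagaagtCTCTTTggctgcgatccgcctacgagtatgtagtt
Snhg12: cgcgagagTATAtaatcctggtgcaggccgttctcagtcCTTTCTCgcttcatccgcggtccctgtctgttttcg
Snhg1: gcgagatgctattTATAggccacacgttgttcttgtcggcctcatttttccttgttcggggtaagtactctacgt
Malat1: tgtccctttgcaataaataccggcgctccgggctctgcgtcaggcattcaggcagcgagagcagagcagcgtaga

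All 4 host genes had TATA in that window of at least 1 listed promoter, against 1802 (5.49%) of 32851 mouse promoters. Gas5, Snhg8 and Snhg12 also had the TOP-like run, which 3792 (11.5%) of all promoters hold, and only 227 (0.691%) hold both. Snhg1 had no such run within 3 bases of its annotated start. Of 14 other host genes with a listed promoter, 3 had the run, 2 had TATA and 1 had both. The promoters of Malat1 and Kcnq1ot1 had neither, and nor had the first listed promoter of Gas5. Only the exact letters TATA were counted, so other AT-rich stretches, such as ataaata in the Malat1 line, were not. A match describes the letters of the window and is no evidence of a bound factor.

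The snoRNAs inside the host genes are shown next because of how they were counted. GENCODE release M21 places 10 snoRNA genes inside Gas5, 8 inside Snhg1, 5 inside Snhg12 and 1 inside Snhg8 (Snora24). Snord80 in Gas5 and Snora16a in Snhg12 each appear as separate genes over nearly the same bases, and each such gene is counted. In Gas5, 8 of the 10 have the C box letters TGATGA within their first 25 bases, and all 10 have the D box letters CTGA within their last 22 bases. In Snhg1 the C box was found in 6 of 8 and the D box in 8 of 8. The following are Snord47 (chr1:161038082-161038158) and Snord80 (chr1:161037601-161037681) of Gas5 and Snord99 (chr4:132310691-132310764) of Snhg12, all on the plus strand of mm10, with both boxes in capitals.
Snord47: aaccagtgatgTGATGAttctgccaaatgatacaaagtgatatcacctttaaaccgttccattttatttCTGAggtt
Snord80: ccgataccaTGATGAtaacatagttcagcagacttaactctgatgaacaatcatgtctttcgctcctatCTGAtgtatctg
Snord99: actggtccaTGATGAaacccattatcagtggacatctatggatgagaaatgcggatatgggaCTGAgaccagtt

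All of these snoRNA genes had 0 counts in each of the 7 libraries. The same held for every other gene whose exons share bases with an exon of one of the 7 long non-coding RNAs, including Kcnq1, which lies opposite Kcnq1ot1. Across the genome, 172 snoRNA genes lie wholly inside exons of other genes and 0 of them had a count, against 91 (7.13%) of 1277 snoRNA genes that share no exon base. Of all 1210 genes that lie wholly inside exons of others, 8 (0.661%) had a count, against 14212 (33.8%) of 42092 genes with no shared base, and of the 487 that are covered on the opposite strand only, 2 (0.411%) had one. The counts of the long non-coding RNAs may therefore lack reads from their shared bases, which are 20.9% of the exon bases of Snhg1, 19.6% of Snhg12, 17.8% of Gas5, 15.2% of Snhg8, 7.72% of Malat1, 1.85% of Neat1 and 1.20% of Kcnq1ot1. A count of 0 for a snoRNA wholly inside the exons of its host is accordingly no measure of its level. Kcnq1 shares only 2.96% of its exon bases with other genes and was at 0 all the same, while 6309 (60.6%) of 10404 partly shared genes had a count. Whether the counting used strand is not stated in the sources at hand.

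Malat1 also ends in an unusual way, shown because the stretch sets its end apart from that of the host RNAs. No value here measures its processing. Its primary transcript is cut by RNase P upstream of a tRNA-like small RNA, mascRNA, and the mature end is an A-rich stretch that folds into a triple helix instead of a poly(A) tail. The line runs over chr19:5795924-5796076 on the minus strand of mm10, with the 58 bases annotated as mascRNA in capitals. The bases before them hold a run of 12 A, encoded in the genome.
Malat1: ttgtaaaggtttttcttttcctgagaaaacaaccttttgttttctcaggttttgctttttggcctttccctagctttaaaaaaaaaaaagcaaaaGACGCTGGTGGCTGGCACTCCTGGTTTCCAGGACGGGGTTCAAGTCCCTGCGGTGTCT

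Libraries held 7492570 to 9226841 gene counts in FAPi and 9228260 to 10569690 in DPBS. The stromal genes fixed for this tissue, Pdgfra, Cxcl12 and Lepr among them, summed to 22400 to 29600 CPM (counts scaled to a common library total with the trimmed mean of M values, TMM) in FAPi and 23700 to 27400 CPM in DPBS. The summed CPM of 9 erythroid markers was 1540 to 3080 in FAPi and 1660 to 15200 in DPBS, and that of 10 neutrophil markers 195 to 622 in FAPi and 663 to 2830 in DPBS. Macrophage and osteoclast markers (9 genes) summed to 151 to 246 CPM in FAPi and 272 to 483 CPM in DPBS. Neither this sum nor the neutrophil sum overlapped between groups. Lyz2 averaged 107 CPM in FAPi and 219 CPM in DPBS, with overlap, and Ctsk 72.1 and 101 CPM, without overlap. Only 5 of the 9 were tested, with C1qa above 0. Of 10 neutrophil markers, 5 were lower in every FAPi library than in any DPBS library, against 3.95% of all genes. DESeq2 called 3 of these lower, against 0.416% of genes. Mmp8, in both sets, had 3 to 6 counts per FAPi library. B cell markers summed to 19.7 to 317 CPM in FAPi and 19.6 to 294 CPM in DPBS, and endothelial markers to 25.6 to 365 CPM in FAPi and 28.7 to 71 CPM in DPBS, with FAPi replicate 1 the highest for both. Kdr alone held 339 CPM of the endothelial sum in that library. Of the FAPi libraries it was the lowest for Cdh5 (1.87 CPM), Emcn (3.75 CPM) and Stab2 (0.5 CPM) and the highest for Pecam1 (12.1 CPM). Ptprc, which encodes CD45, was at 0.278 to 2.32 CPM in FAPi and 0.268 to 5.26 CPM in DPBS. In these bulk samples, fewer cells of a type and less RNA per cell cannot be told apart.

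None of the 7 long non-coding RNAs differed between FAPi and DPBS at an adjusted p under 0.05 (edgeR quasi-likelihood test, Benjamini-Hochberg over 12930 genes). Estimates were negative for Gas5, Snhg8 and Kcnq1ot1 and close to 0 or positive for Malat1, Neat1, Snhg1 and Snhg12. The background gave little to call. edgeR called 0 (0%) of 12930 genes in either direction, and at an unadjusted p under 0.05 it had 576 (4.45%) higher and 477 (3.69%) lower in FAPi. DESeq2 called 84 (0.685%) higher and 51 (0.416%) lower of 12267 genes, and 0 of the 7, whose adjusted p in DESeq2 lay between 0.776 and 0.991. Of the 7, 0 had an unadjusted edgeR p under 0.05 and 0 had groups without overlap, against 438 (3.39%) of all genes separate upward in FAPi and 511 (3.95%) separate downward. With 3 of 7 estimates below 0, against 49.4% of all genes, and a median log2 difference of 0.07, against 0.0082 over all genes, the 7 were near the background.

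**Figure D1:**
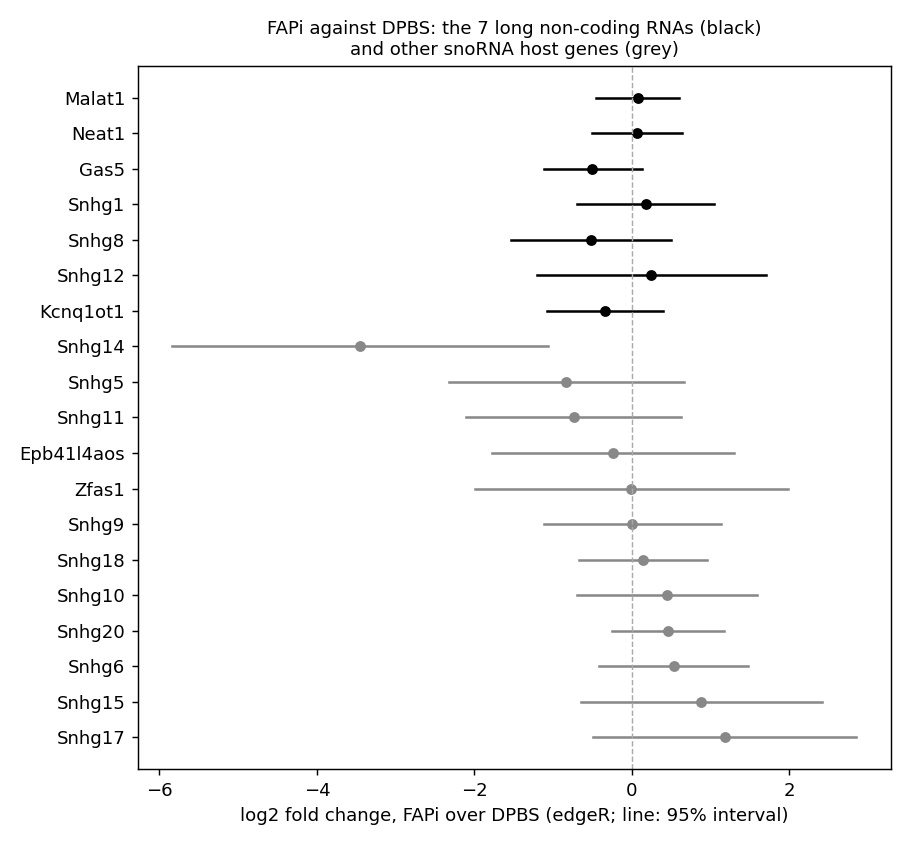
Log2 fold change of FAPi over DPBS (horizontal axis) with its 95% interval from edgeR for the 7 long non-coding RNAs (black) and 12 other snoRNA host genes (grey, ordered by estimate). All 7 black intervals cross 0, and of the grey ones only that of Snhg14 does not. Snhg14 had 5 to 10 counts per FAPi library and passed the low-count filter through its DPBS libraries.

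Malat1 (ENSMUSG00000092341, chr19:5795690-5802672, minus strand, with a longest transcript of 6983 bases) was the long non-coding RNA with the most counts. It had 18260, 10490, 12440 and 18380 CPM in FAPi replicates 1 to 4, against 14740, 11880 and 15880 CPM in DPBS replicates 1 to 3. FAPi libraries held both the highest and the lowest values, so the DPBS libraries lay inside the FAPi range. The means were 14890 ± 4041 CPM in FAPi (SD, n = 4) and 14160 ± 2059 CPM in DPBS (SD, n = 3). The log2 fold change was 0.07 ± 0.24 (SE), with a 95% interval of -0.46 to 0.60 and an adjusted p of 0.974 in edgeR. Its sign turned under 6 of 13 alternatives, with estimates from -0.09 to 0.20. By counts, Malat1 ranked 4, 6, 4 and 3 among all genes in the FAPi libraries and 4, 5 and 4 in the DPBS libraries. The deposited count tables are named as if duplicate reads had been taken out, a step that no protocol describes. Its effect on the count, rank and share of so abundant an RNA was not tested.

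As a share of all gene counts, Malat1 took 1.88%, 0.883%, 1.21% and 1.77% in FAPi replicates 1 to 4 and 1.75%, 1.22% and 1.60% in DPBS replicates 1 to 3. Counting error, if reads are taken as independent, is small beside this spread, as the 95% Wilson interval of the lowest share was 0.877 to 0.889%. FAPi averaged 1.44 ± 0.471% (SD, n = 4) and DPBS 1.52 ± 0.269% (SD, n = 3), a difference of -0.0874 percentage points (two-sided exact permutation p = 0.857). With 35 splits of 4 against 3 libraries and the smaller tail doubled, this test could not give a p under 0.05 for any share. Malat1 made up 31.5 to 50.3% of all counts in long non-coding genes in FAPi libraries and 43.8 to 49.7% in DPBS libraries. The whole class, 12507 annotated genes, took 3.38 ± 0.525% of counts in FAPi and 3.27 ± 0.412% in DPBS (two-sided exact permutation p = 0.686; SD, n = 4 and n = 3).

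Long non-coding genes other than the 7 took 2.09%, 1.88%, 1.90% and 1.70% of counts in FAPi replicates 1 to 4, against 1.69%, 1.52% and 1.85% in DPBS replicates 1 to 3. The 4 host genes together took 0.0169%, 0.0163%, 0.0220% and 0.0130% in FAPi, against 0.0303%, 0.0229% and 0.0220% in DPBS. The highest FAPi value of this sum equalled the lowest DPBS value to the digits given. Gas5 held most of this sum in every library, and the edgeR estimates of Snhg1 and Snhg12 were above 0. These shares are of total counts, without TMM scaling.

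**Figure D2:**
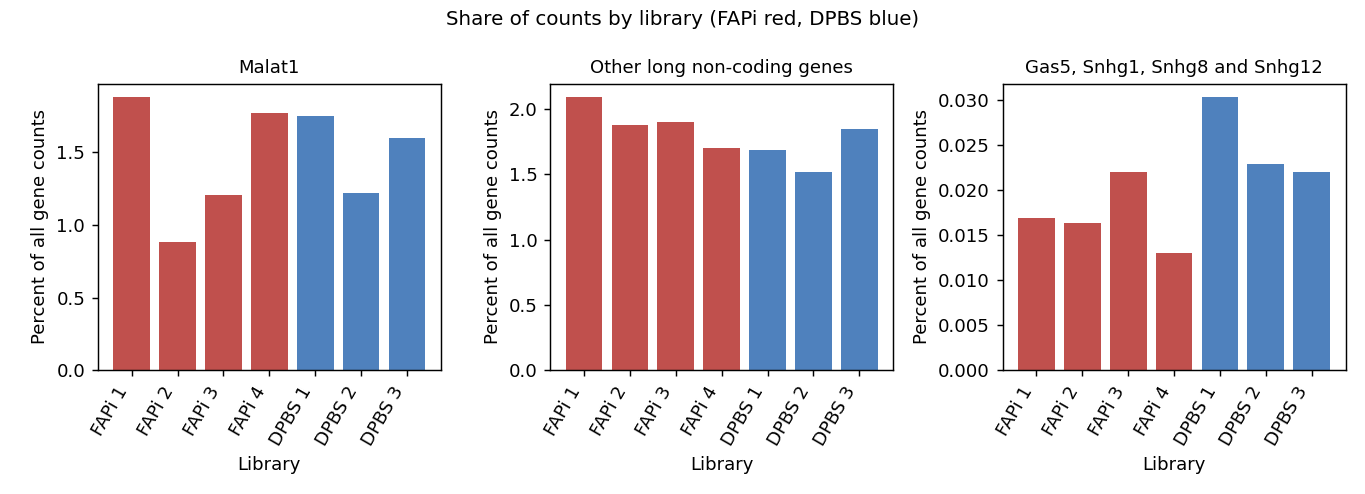
Percent of all gene counts in each library (red, FAPi; blue, DPBS) for Malat1, for long non-coding genes other than the 7, and for Gas5, Snhg1, Snhg8 and Snhg12 together, each on an axis from 0. The lowest and highest Malat1 shares, 0.883% and 1.88%, are both FAPi libraries, and the host genes' shares of FAPi libraries lie between 0.0130% and 0.0220%.

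Neat1 (ENSMUSG00000092274, chr19:5824708-5845478, minus strand) had 289.6, 176.4, 197.4 and 221.1 CPM in FAPi replicates 1 to 4, against 181.3, 238.2 and 214.4 CPM in DPBS replicates 1 to 3. FAPi replicate 1 was the highest and FAPi replicate 2 the lowest of the 7 libraries, and the groups overlapped. The means were 221.2 ± 49.2 CPM in FAPi (SD, n = 4) and 211.3 ± 28.6 CPM in DPBS (SD, n = 3), and the log2 fold change was 0.07 ± 0.26 (SE; edgeR adjusted p = 0.979), with a 95% interval of -0.50 to 0.63. Among long non-coding genes Neat1 ranked 9 by mean CPM.

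Both Malat1 and Neat1 were lowest in FAPi replicate 2 and high in FAPi replicate 1. Their counts stood in a ratio of 63.1, 59.4, 63.0 and 83.1 (Malat1 over Neat1) in FAPi and 81.3, 49.9 and 74.0 in DPBS. The ratios of the groups overlapped, and the lowest was that of DPBS replicate 2. Their centred log2 profiles differed by a root mean square (RMS) of 0.245 over the 7 libraries, the second smallest of the 21 pairs among the 7 genes. A flat profile would differ by 0.228 from Neat1 and 0.291 from Malat1. It would thus lie nearer to Neat1 than Malat1 does, so the small distance does not show a shared profile. The deposited counts do not separate the short from the long form of Neat1.

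Of 20 genes of paraspeckle proteins, 13 had estimates above and 7 below 0, with a median log2 difference of 0.11, and edgeR called 0. Hnrnpul1, an RNA-binding protein of the hnRNP family, had 262, 330, 212 and 163 CPM in FAPi, against 124, 118 and 103 CPM in DPBS. It was the only one of the 20 without overlap, against 3.39% of all genes separate upward and 3.95% downward. Its log2 fold change was 1.07 ± 0.29 (SE), with an unadjusted p of 0.00385 and an adjusted p of 0.470 in edgeR. Pspc1, a core paraspeckle protein, averaged 12 CPM in FAPi and 24.7 CPM in DPBS, where replicate 3 held 56.3 CPM, and its log2 difference of -1.04 became 0.43 without that library.

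Among 9 genes of nuclear speckle proteins and of factors that act on the Malat1 end, 6 estimates were above 0 and 3 below, and edgeR called 0. Ddx39b, an RNA helicase of splicing and export, was the only one of these 9 without overlap, against 3.39% of all genes separate upward and 3.95% downward. It was at 304, 512, 271 and 414 CPM in FAPi against 138, 238 and 255 CPM in DPBS (unadjusted p = 0.0229 in edgeR). Mettl16, which binds the triple helix of human MALAT1, averaged 15.8 CPM in FAPi and 7.75 CPM in DPBS, with overlapping groups.

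**Figure D3:**
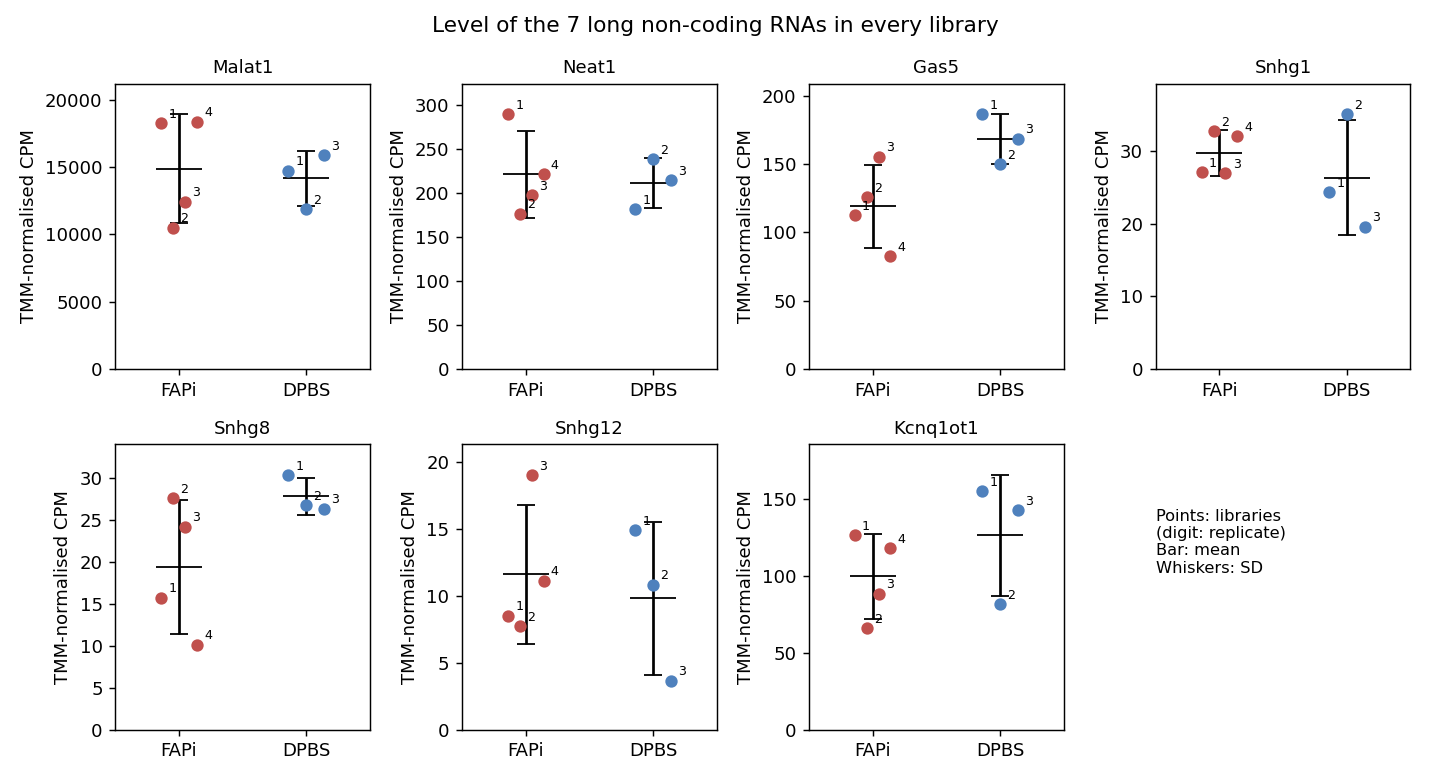
TMM-normalised CPM (vertical axes from 0, each on its own scale) of the 7 long non-coding RNAs in FAPi (red, n = 4) and DPBS (blue, n = 3) libraries, with the mean as a bar, the SD as whiskers and the replicate number beside each point. The groups overlap in every panel, and for Gas5 they do so through FAPi replicate 3 alone, at 155.4 CPM.

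Gas5 (ENSMUSG00000053332, chr1:161034422-161038539, plus strand), the host of Snord47 and Snord80 shown above, is named for its accumulation in growth-arrested cells. It had 112.4, 125.5, 155.4 and 82.4 CPM in FAPi replicates 1 to 4, against 186.3, 149.9 and 168.4 CPM in DPBS replicates 1 to 3. Only FAPi replicate 3 exceeded a DPBS library, DPBS replicate 2. The means were 118.9 ± 30.3 CPM in FAPi (SD, n = 4) and 168.2 ± 18.2 CPM in DPBS (SD, n = 3). The log2 fold change was -0.50 ± 0.28 (SE), with a 95% interval of -1.12 to 0.12, an unadjusted p of 0.105 and an adjusted p of 0.695 in edgeR. The estimate was below 0 under all 13 alternatives, from -0.68 to -0.35, with adjusted p from 0.562 to 0.954. Estimates were below 0 as well for 10 of 10 neutrophil markers and 9 of 9 erythroid markers, and for 4 of 5 tested macrophage and osteoclast markers, with the summed CPM given above, and the part of such cells in the Gas5 and Snhg8 values was not tested.

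The opposite-strand neighbour Zbtb37, a zinc finger gene whose span reaches into Gas5 without sharing exon bases with it, had 7.75, 1.29, 9.98 and 6.95 CPM in FAPi, against 1.78, 2.21 and 2.06 CPM in DPBS. The groups overlapped through FAPi replicate 2, and the estimate of 1.68 ± 0.92 (SE) did not pass (edgeR adjusted p = 0.686).

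Snhg8 (ENSMUSG00000104960, chr3:123507552-123508404, minus strand), the host of Snora24, had 15.8, 27.7, 24.2 and 10.2 CPM in FAPi replicates 1 to 4, against 30.4, 26.8 and 26.4 CPM in DPBS replicates 1 to 3. The DPBS libraries were close together, and FAPi replicates 1 and 4 lay far below them while FAPi replicate 2 lay among them. The means were 19.5 ± 7.98 CPM in FAPi (SD, n = 4) and 27.9 ± 2.22 CPM in DPBS (SD, n = 3), with a log2 fold change of -0.52 ± 0.46 (SE), a 95% interval of -1.53 to 0.50 and an adjusted p of 0.818 in edgeR. Over 13 alternatives the estimate ranged from -0.75 to -0.30.

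Snhg1 (ENSMUSG00000108414, chr19:8723475-8726443, plus strand), the host of Snord22, had 27.1, 32.8, 27.0 and 32.1 CPM in FAPi replicates 1 to 4, against 24.4, 35.1 and 19.6 CPM in DPBS replicates 1 to 3. Here the FAPi libraries were the tight group and lay within the DPBS range. The log2 fold change was 0.18 ± 0.39 (SE; edgeR adjusted p = 0.955), with a 95% interval of -0.69 to 1.04.

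Snhg12 (ENSMUSG00000086290, chr4:132308623-132311024, plus strand), the host of Snord99 and of H/ACA snoRNAs such as Snora61, had 8.50, 7.72, 19.02 and 11.1 CPM in FAPi replicates 1 to 4, against 14.9, 10.8 and 3.66 CPM in DPBS replicates 1 to 3. By CPM its highest library was FAPi replicate 3, from 164 counts, and its lowest DPBS replicate 3, from 39 counts. The log2 fold change was 0.24 ± 0.66 (SE; edgeR adjusted p = 0.964), with a 95% interval of -1.21 to 1.70. The estimate was -0.10 without FAPi replicate 3 and -0.15 without DPBS replicate 3.

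The other snoRNA host genes did not move as a group. Of 17 listed, 12 were tested, with 7 estimates above and 5 below 0 and a median log2 difference of 0.07. Of all genes, 3.95% were separate downward and 3.39% upward. Among the 12, only Snhg14, a long imprinted host transcript, was without overlap, at 1, 0.644, 0.580 and 1.39 CPM in FAPi against 1.61, 3.26 and 25.1 CPM in DPBS. Snhg14 had 8, 5, 5 and 10 counts in FAPi and 18, 31 and 267 in DPBS, so it passed the low-count filter through its DPBS libraries. Its separation and its p are therefore given as a description and are no evidence of a difference. Its log2 difference of -3.45 ± 1.08 (SE; edgeR unadjusted p = 0.00884, adjusted p = 0.489) was -1.42 without DPBS replicate 3. Snhg17 averaged 26.9 ± 27.4 CPM in FAPi and 11.9 ± 4.10 CPM in DPBS, and its log2 difference of 1.18 was 0.19 without FAPi replicate 2, at 66.5 CPM. Snhg20 averaged 99.4 ± 29.4 CPM in FAPi and 72.4 ± 10.3 CPM in DPBS, with overlap (SD, n = 4 and n = 3 throughout).

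Of 16 proteins of the snoRNA particles, 6 had estimates above and 10 below 0, against 49.4% below 0 over all genes, and 3 were separate downward, against 3.95% of all genes. Nhp2, a core protein of box H/ACA particles, had 33.1, 19.4, 21 and 28.6 CPM in FAPi, against 36.0, 112 and 34.6 CPM in DPBS. Its log2 difference of -1.25 was -0.47 without DPBS replicate 2. Znhit3, an assembly factor of box C/D particles, had 3.75, 2.57, 9.98 and 5.98 CPM in FAPi, against 10.1, 19 and 20.1 CPM in DPBS (unadjusted p = 0.0368 in edgeR). Ruvbl2, a helicase-like protein that helps to assemble these particles, had 12.9, 9.52, 13.7 and 14.2 CPM in FAPi, against 21.3, 21.1 and 19.8 CPM in DPBS. All 3 were lower in every FAPi library than in any DPBS library, and none passed in edgeR after adjustment. Nop58, a core protein of box C/D particles, averaged 46.2 CPM in FAPi and 26.9 CPM in DPBS, with overlap.

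Among 15 TOP mRNAs other than those of ribosomal proteins, which carry the same kind of start as Gas5, 3 estimates were above and 12 below 0, with a median log2 difference of -0.15 and 0 called by edgeR. Over all genes, 49.4% of estimates were below 0 and 3.95% were separate downward, as were 2 of these 15. Eif3e, a subunit of the translation initiation factor eIF3, had 46.5, 46.6, 47.8 and 44.1 CPM in FAPi, against 90.5, 72.9 and 57.2 CPM in DPBS, without overlap. Nap1l1, a histone chaperone, was also separate, at 24.7, 44.3, 46.2 and 54.8 CPM in FAPi against 72.5, 58.4 and 70.1 CPM in DPBS. Their log2 differences were -0.67 and -0.66, and neither had an unadjusted p under 0.05 in edgeR.

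Of 15 factors of nonsense-mediated decay, the route that degrades spliced Gas5, 8 had estimates above and 7 below 0, and 2 were separate upward, against 3.39% of all genes. Upf1, the central helicase of this decay, had 208, 608, 270 and 229 CPM in FAPi, against 143, 140 and 168 CPM in DPBS. Its log2 difference of 1.13 (edgeR unadjusted p = 0.013, adjusted p = 0.494) was 0.64 without FAPi replicate 2. Smg1, the kinase that phosphorylates Upf1, had 144, 96.7, 108 and 94.0 CPM in FAPi, against 79.1, 43.3 and 61.3 CPM in DPBS (edgeR unadjusted p = 0.024, adjusted p = 0.543).

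Kcnq1ot1 (ENSMUSG00000101609, chr7:143203458-143296549, minus strand, a single annotated transcript of 93092 bases) had 126.5, 66.2, 88.4 and 117.9 CPM in FAPi replicates 1 to 4, against 155.0, 81.5 and 142.7 CPM in DPBS replicates 1 to 3. FAPi replicate 2 was the lowest and DPBS replicate 1 the highest, and DPBS replicate 2 lay within the FAPi range. The means were 99.7 ± 27.7 CPM in FAPi (SD, n = 4) and 126.4 ± 39.4 CPM in DPBS (SD, n = 3). The log2 fold change was -0.34 ± 0.34 (SE; edgeR adjusted p = 0.843), with a 95% interval of -1.08 to 0.40, and it was below 0 under all 13 alternatives.

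Of 12 listed genes of the Kcnq1 domain, 6 were tested, and edgeR called 0 of them. Cdkn1c, an imprinted inhibitor of the cell cycle that Kcnq1ot1 silences in mouse, had 60.4, 64.5, 71.5 and 98.0 CPM in FAPi, against 71.3, 45.4 and 74.6 CPM in DPBS, with a log2 difference of 0.21 (edgeR adjusted p = 0.923). Osbpl5, a lipid transfer protein, averaged 13.7 CPM in FAPi and 27.1 CPM in DPBS, with FAPi replicate 3 at 19.6 CPM above DPBS replicate 3 at 18.7 CPM. Ascl2, Trpm5 and Th were listed with 0 counts in every library.

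Among 29 other well known long non-coding RNAs, 16 were tested, with 9 estimates above and 7 below 0, and edgeR called 0. Tug1, 2900097C17Rik and Peg13 were separate upward, 3 of 16 against 3.39% of all genes. The RNA 2900097C17Rik had 53.2, 86, 55.9 and 91 CPM in FAPi, against 25.5, 52.4 and 23.7 CPM in DPBS (edgeR unadjusted p = 0.0246, adjusted p = 0.543). Peg13, an imprinted RNA, had 35.1, 27.2, 25.2 and 27.9 CPM in FAPi, against 23.5, 8.94 and 14.8 CPM in DPBS (edgeR adjusted p = 0.673). Tug1, a widely expressed nuclear and cytoplasmic RNA, had 156, 376, 161 and 136 CPM in FAPi, against 122, 127 and 78.4 CPM in DPBS, and its log2 difference of 0.93 was 0.46 without FAPi replicate 2. Ftx, a gene of the X inactivation centre, averaged 5.37 CPM in FAPi and 24.3 CPM in DPBS, where replicate 3 held 62.1 CPM. Its log2 difference of -2.18 was -0.02 without that library.

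The order of the 7 was set on a scale per length, the CPM per 1000 bases of the union of annotated exons. Malat1 stood far above the rest, at 2133 ± 578.7 in FAPi and 2028 ± 294.8 in DPBS (SD, n = 4 and n = 3). Gas5 followed at 31.6 ± 8.05 in FAPi and 44.7 ± 4.85 in DPBS, and Snhg8 at 22.8 ± 9.35 in FAPi and 32.7 ± 2.60 in DPBS. Gas5 and Snhg8 overlapped in FAPi libraries and were separate in DPBS libraries. Neat1, at 10.7 ± 2.37 in FAPi and 10.2 ± 1.38 in DPBS, and Snhg1, at 10.03 ± 1.05 in FAPi and 8.88 ± 2.68 in DPBS, did not differ beyond their spread. Neat1 also overlapped Snhg8 in FAPi libraries, where Snhg8 was at 11.9 in replicate 4 and Neat1 at 13.94 in replicate 1. Snhg12, at 4.83 ± 2.15 in FAPi and 4.08 ± 2.37 in DPBS, came next, and Kcnq1ot1 was lowest at 1.07 ± 0.30 in FAPi and 1.36 ± 0.42 in DPBS. The lowest Snhg12 library, DPBS replicate 3 at 1.52, fell within the Kcnq1ot1 range. This order below Malat1 depends on the length used. Divided by the length of single annotated lincRNA transcripts, Gas5 was at 178.8 to 343.7 in FAPi and 252.9 to 486.1 in DPBS. Neat1 was at 10.65 to 311.1 in FAPi and 10.17 to 297.2 in DPBS, a range that overlapped that of Gas5. On its transcript of 3004 bases Neat1 was at 73.6 in FAPi and 70.3 in DPBS. On the same scale Snhg1 was at 41.99 to 72.96 in FAPi and 37.18 to 64.62 in DPBS, a range that reached Snhg8, at 36.84 to 43.42 in FAPi and 52.78 to 62.21 in DPBS.

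The 7 also differed in how steady they were. The highest library was 1.64 times the lowest for Neat1, 1.75 times for Malat1, 1.79 times for Snhg1, 2.26 times for Gas5, 2.34 times for Kcnq1ot1, 3.00 times for Snhg8 and 5.20 times for Snhg12. The SD within groups of log2 CPM was 0.27 for Neat1, smaller than that of all but 5.97% of tested genes, and 0.29 for Snhg1, where genes within 2-fold of its level had a median of 0.66. It was 0.31 for Gas5, against a median of 0.43 at its level. Malat1, at 0.34, had 4 genes within 2-fold of its level, with a median of 0.25. Snhg12 had an SD of 0.79, at the median of all genes, 0.79, and below the 0.94 of genes at its level.

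**Figure D4:**
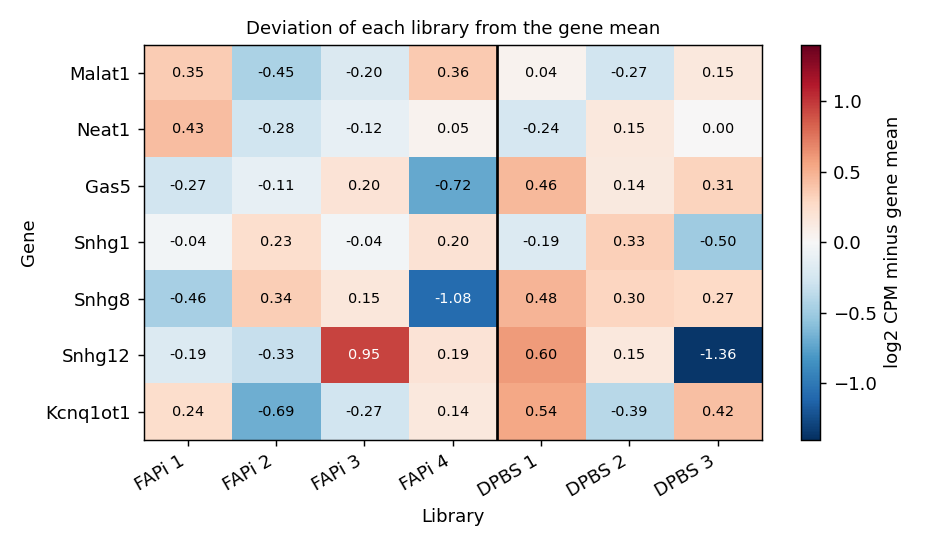
Log2 CPM of each of the 7 long non-coding RNAs (rows) in each library (columns, FAPi left of DPBS) minus the gene's mean over the 7 libraries, with the value written in each cell. FAPi replicate 4 is lowest for Gas5 (-0.72) and Snhg8 (-1.08) while it is above the mean for Malat1 (0.36), and FAPi replicate 2 is lowest for Malat1 (-0.45) and Kcnq1ot1 (-0.69).

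Library by library, the closest pair was Gas5 and Snhg8, 2 of the 3 host genes with both TATA and the TOP-like run, whose centred log2 profiles differed by an RMS of 0.241. Both were lowest in FAPi replicate 4 and highest in DPBS replicate 1. Malat1 and Kcnq1ot1 differed by 0.254, and both were lowest in FAPi replicate 2. Snhg12, the other host gene with both motifs, was farthest from Snhg8, at 0.885. A flat profile would differ by 0.371 from Gas5, 0.524 from Snhg8, 0.291 from Malat1 and 0.421 from Kcnq1ot1. These are descriptions over 7 libraries that share scaling and depth.

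Profiles were compared with 5854 tested genes of at least 20 CPM on average. Genes with a predicted, clone, pseudogene or mitochondrial symbol were left out, so long non-coding genes with such names could not appear. The profile nearest to Malat1 was that of Sun2, a protein of the nuclear envelope, at an RMS of 0.105, with Fkbp1a at 0.114, where the median gene was at 0.584. Nearest to Neat1 were Nmt1 (0.0862), Ddx47 (0.116) and Rasa3 (0.117). Nearest to Gas5 were Mrps26, a protein of the mitochondrial ribosome, at 0.104, Myo10 (0.128) and Ube2j2 (0.148), where the median gene was at 0.643. Kcnq1ot1 was nearest to Pdzrn4 (0.124), Rala (0.158) and Aars (0.161), and Snhg1 to Lsm12 (0.136), Itga5 (0.140) and Ghitm (0.144). Snhg8 was nearest to Appl2 (0.191) and Trappc12 (0.196), at larger distances. Snhg12 had no profile nearer than 0.222, that of Nr4a1, an immediate early gene, followed by Appl1 (0.245) and Zfp36 (0.254).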

How the data were processed

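RNA was measured in 4 FAPi and 3 DPBS libraries, paired 150-base reads. The authors deposited whole-number gene counts and CPM values per library, and only the counts were used here. The names of the count tables point to removal of duplicate reads, which no protocol describes. STAR, HTSeq and mm10 are named, per the submitters' processing notes, without versions, and the sources used here do not give the annotation used for counting. Of 53801 gene IDs, 53706 matched GENCODE M21 (mm10) with version suffixes ignored. For the 7 genes the version was that of M21 in 4 cases and another in 3. No deposited CPM table was needed, and no row that names no gene entered library sizes. The 7 genes, the gene lists, tests and alternatives were chosen with earlier results of these data known.

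Counts were tested with edgeR 4.0.16 in R 4.3.3 (filterByExpr by group with a minimum count of 10, TMM factors, estimateDisp, glmQLFit and glmQLFTest, robust), with Benjamini-Hochberg adjustment over 12930 genes and a threshold of 0.05. Fold changes are FAPi over DPBS. The SE was taken as the size of the log2 fold change over the root of its F value. Centred profiles use log2 CPM with a prior count of 2. Shares were compared with exact permutation tests over 35 splits (SciPy 1.17.1), with 95% Wilson intervals. Totals ran from 7492570 to 10569690, so a floor of 3 counts is 0.284 to 0.400 CPM. Wilson intervals and floors cover counting error only, and may understate it, since reads without molecular identifiers are not independent molecules. The edgeR intervals and the p-values set the group difference against the spread between these libraries. The functions were tested on simulated data. Alternatives were DESeq2 1.42.0, limma 3.58.1 voom with sample weights, RLE factors, total counts only, no low-count filter, a replicate block and leaving out each library. All 7 genes were named, with up to 4 genes per other list by smallest p, the 3 most like profiles per gene, and genes that overlap them. Some genes selected this way are not reported here.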

Additional observations from a re-analysis of the deposited data

Results flagged for a closer look

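In the FAPi group of 4, a single library stood apart from the other 3 in 5 of 45 checked values, by a ratio of its gap to the whole range that chance passes in about 1 of 20 groups. None of the 5 is one of the 7 long non-coding RNAs. Snhg15, a snoRNA host gene, was at 4.75 CPM in FAPi replicate 1, against 16.2 to 17.5 CPM in the other FAPi libraries. Tspan32, a gene of the Kcnq1 domain, was at 18.7 CPM in the same library, against 1.51 to 3.75 CPM. That library also held 317 CPM of summed B cell markers, against 19.7 to 31.1 CPM in the other FAPi libraries. Its endothelial markers summed to 365 CPM, against 25.6 to 58.2 CPM, with 339 CPM from Kdr alone. The part of such cells in the Tspan32 value was not tested. FAPi replicate 2 stood apart for Upf1, at 608 CPM against 208 to 270 CPM, and for Tug1, at 376 CPM against 136 to 161 CPM. Eif3h, a TOP mRNA, was at 49.4 CPM in FAPi replicate 3, against 71.7 to 74.6 CPM.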

How the results depend on the processing

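None of the 7 long non-coding RNAs was called under any of the 13 alternatives. Gas5, Snhg8 and Kcnq1ot1 stayed below 0 in all 13, and Gas5 had an unadjusted p of 0.0415 in edgeR with total counts only. As a share of total counts, Gas5 was also lower in every FAPi library than in any DPBS library. How many of all genes separate under that scaling was not counted. That scaling gave a median log2 difference over all genes of -0.16 and 59.9% of estimates below 0, against 0.0082 and 49.4% with TMM, and under it Malat1 was at -0.0853, Neat1 at -0.0819 and Snhg1 at -0.00376. Malat1 was also at -0.0136 with voom. When a library was left out, Malat1 ranged from -0.0419 to 0.195, below 0 without FAPi replicate 1, FAPi replicate 4 or DPBS replicate 2. Neat1 ranged from -0.0924 to 0.158, below 0 without FAPi replicate 1 or DPBS replicate 1. Snhg12 ranged from -0.15 to 0.67, below 0 without FAPi replicate 3 or DPBS replicate 3, and Pspc1 from -1.48 to 0.43, above 0 only without DPBS replicate 3.

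Calls over all genes were 84 higher and 51 lower with DESeq2, 5 higher and 1 lower with no low-count filter (20545 genes tested) and 1 higher with voom, against 0 in edgeR, where 1053 genes had an unadjusted p under 0.05. They ranged from 0 to 2 higher and from 0 to 1 lower when a library was left out, with all of these calls (higher Gm47917 and Stard8, lower Mbnl3) made without DPBS replicate 3. The Malat1 share differed by -0.237 to 0.0969 percentage points when a library was left out, above 0 without FAPi replicate 2 (0.0969) and without DPBS replicate 1 (0.0236). The share of all long non-coding genes differed by -0.136 to 0.294, below 0 without FAPi replicate 1 (-0.117) and without DPBS replicate 2 (-0.136).

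Same-numbered libraries did not deviate together (correlations of -0.00843, -0.0184 and -0.051). The labels do not say whether the numbers pair mice, and these correlations cannot settle it. With the replicate number as a block, 718 genes had an unadjusted p under 0.05, 0 were called, and Malat1 was at -0.0747. Differences within same-numbered replicates, taken as such a block, were -0.197 for the Malat1 share and 0.0565 for the share of all long non-coding genes. The causes of these shifts were not tested. Depth limits Snhg12, with 39 to 167 counts per library, most.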
